A study of Saccharomyces cerevisiae with 16 samples.

Results

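The transcript levels of 10 genes that haploid a cells of budding yeast use for mating were followed through a series of carbon source shifts. The genes were chosen by name (MFA1, MFA2, STE6, BAR1, STE2, GPA1, FAR1, AGA1, AGA2 and FUS1). They are 10 of the 7126 transcripts listed and of the 6685 nuclear open reading frames (ORFs), and all 10 were among the 5881 ORFs tested, those averaging 1 FPKM or more over the libraries (FPKM, a fragment count scaled to transcript length and library size). The data were strand-specific RNA-seq from wild-type cells (strain YSB787) and from hda1∆ cells (strain YTK113, with the deletion given as hda1-/- in its label), which lack Hda1, a histone deacetylase of chromatin. Both strains were grown in synthetic complete medium with raffinose, then moved to galactose for 15, 30 and 120 min, to glucose for 30 and 120 min, and back to galactose for 15 and 30 min, which was read as the second pulse. Each genotype had 1 library at each of the 8 stages (16 libraries), and each genotype was 1 strain. The spread between cultures is therefore not known, no test across replicates was possible, and every interval below covers counting error only. The labels give neither the mating type nor the rest of the genotype, and no pheromone treatment is described.

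Mating in yeast starts with an exchange of pheromones. An a cell secretes a-factor, a farnesylated peptide encoded by MFA1 and MFA2, and senses alpha-factor from its partner through the receptor Ste2. The receptor acts through a heterotrimeric G protein and a MAP kinase cascade on the transcription factor Ste12, which binds pheromone response elements and raises genes for arrest, agglutination and cell fusion. Genes used only by a cells are activated in them by Mcm1. In alpha cells they are shut off by the alpha2 repressor, which binds beside Mcm1 and recruits Tup1 and Cyc8. Hda1 is known to work with Tup1, and AGA1, FUS1, FAR1 and GPA1 are not restricted to a cells.

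The libraries carried the a-cell programme. Summed over 7 a-cell markers (MFA1, MFA2, STE2, STE6, BAR1, AGA2 and ASG7), levels ran from 3095 to 4379 FPKM in wild type and from 2463 to 5236 FPKM in hda1∆ cells. The alpha-cell markers MF(ALPHA)1, MF(ALPHA)2 and STE3, which encode alpha-factor and the a-factor receptor, summed to 2.93 to 4.92 FPKM in wild type and 3.19 to 11.8 FPKM in hda1∆ cells, and no single value passed 9.94 FPKM. SAG1, the alpha-agglutinin, went against this, at 27.7 to 72.4 FPKM in every library. HDA1 itself lay at 27.0 to 38.8 FPKM in wild type and at 0 to 0.162 FPKM in hda1∆ cells. Depth ran from 1.67 to 2.51 Gb aligned in genes per library (median 2.21), and 3 fragments equal 0.217 to 0.320 FPKM for a gene of 1 kb. Nuclear RNA genes took 8.88 to 15.7% of the aligned bases. Their share was 10.2% in wild type and 15.7% in hda1∆ cells at 120 min of galactose, 11.7% and 14.7% at 15 min of the second pulse, and 14.0% and 13.9% at 30 min.

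The sequences before the genes set the a-specific members apart. All 6 a-specific members (MFA1, MFA2, STE6, BAR1, STE2 and AGA2) held CATGTAA, the sequence bound by 1 alpha2 subunit, 3 or 4 bases from an Mcm1 box, taken as CC and GG with 6 bases of any kind between them. This is the arrangement known from the operators at which alpha2 and Mcm1 bind together. The operators are shown because they mark which members share this control region. Capitals mark the alpha2 sites and the boxes, each window is written 5′ to 3′ toward its gene, and the bases come from the RefSeq genome (R64), whose coordinates match those of the files for all 10 members.
MFA1, chrIV:1384940-1384984 (+): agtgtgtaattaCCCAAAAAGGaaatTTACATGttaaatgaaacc
MFA2, chrXIV:352161-352205 (+): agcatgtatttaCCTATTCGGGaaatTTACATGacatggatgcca
STE6, chrXI:46476-46519 (-): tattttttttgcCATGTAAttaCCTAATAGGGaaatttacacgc
BAR1, chrIX:322066-322119 (+): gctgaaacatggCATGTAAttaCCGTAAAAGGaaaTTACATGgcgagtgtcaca
STE2, chrVI:82339-82383 (+): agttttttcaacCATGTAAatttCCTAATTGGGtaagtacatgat
AGA2, chrVII:437100-437133 (-): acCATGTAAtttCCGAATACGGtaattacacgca

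BAR1 had an exact match to CATGTAA on each side of its box, and in MFA1 and MFA2 the match lay between the box and the gene. Only exact matches were searched for, so a site with a changed base is not marked. Within the 300 bases before the start codon, searched on both strands, CATGTAA was found before 230 of the 5881 tested ORFs (3.91%) and the box before 1730 (29.4%). An alpha2 site within 8 bases of such a box was found before 12 (0.204%). These 12 were the 6 a-specific members, ASG7, which is also a-specific, and YDL129W, BET3, YNR034W-A, NUF2 and NBA1, of which NUF2 and NBA1 are neighbours. The box with any middle, the pairing and its limit of 8 bases were chosen after the promoters had been read. A stricter box, with only A or T between CC and GG, was found before 146 ORFs (2.48%), among them MFA1 at -164 and FAR1 at -254 from the start codon.

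The pheromone response element TGAAACA was found before 416 ORFs (7.07%), and before 7 of the 10 members. MFA1, GPA1 and FAR1 had no match in this window. BAR1 and FUS1 had 2 matches each, which 21 ORFs did in all (0.357%). The FAR1 box, with no match to CATGTAA beside it, and the FUS1 elements are shown because both transcripts were called between genotypes below. Capitals mark the box in FAR1 and the elements in FUS1.
FAR1, chrX:126561-126594 (-): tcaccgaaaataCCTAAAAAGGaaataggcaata
FUS1, chrIII:71604-71661 (+): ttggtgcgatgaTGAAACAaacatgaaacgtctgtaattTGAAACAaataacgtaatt

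**Figure D1:**
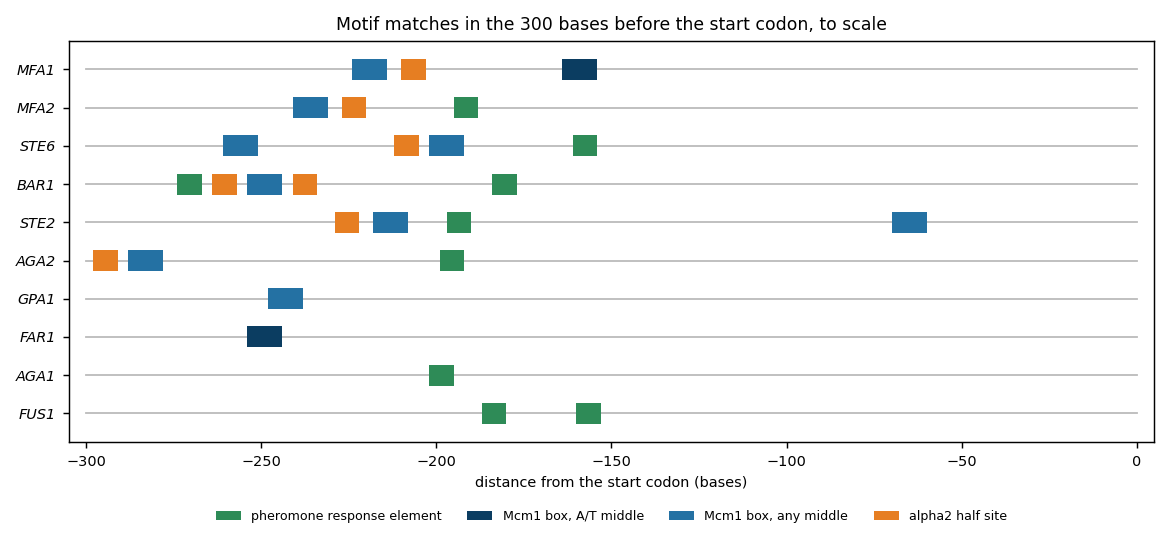
Positions of motif matches in the 300 bases before the start codon of each of the 10 genes; the x axis is the distance from the start codon in bases and each coloured block is 1 match, drawn to scale. The 6 upper genes each have an alpha2 site 3 or 4 bases from an Mcm1 box, and the 4 lower genes have no exact match to CATGTAA.

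The a-factor genes are among the shortest in the genome. MFA1 (YDR461W, chrIV:1385176-1385286) has 111 bases and MFA2 (YNL145W, chrXIV:352414-352530) has 117. They are shown whole because the transcripts of both were compared throughout. Capitals mark the last 4 codons before the stop, which encode the motif at which the precursor is farnesylated.
MFA1: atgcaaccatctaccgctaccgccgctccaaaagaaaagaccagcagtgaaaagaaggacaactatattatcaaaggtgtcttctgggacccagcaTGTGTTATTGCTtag
MFA2: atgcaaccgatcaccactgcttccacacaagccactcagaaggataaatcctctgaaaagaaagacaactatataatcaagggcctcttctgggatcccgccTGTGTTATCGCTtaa

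When aligned, 84 of 117 positions were identical (71.8%) and the longest run they shared was 11 bases, far below the 101 bases of a read. Reads of either gene could therefore be told from reads of the other. Both ORFs are hardly longer than a read, so their FPKM values rest on few positions. None of the 10 genes overlaps another annotated gene. The members' counts ran from 282 fragments for FUS1 to 11826 for STE2.

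In order of their median level over the 16 libraries, the members were MFA2 (2187 FPKM), STE2 (423), MFA1 (389.6), AGA2 (326), BAR1 (166), STE6 (94.9), FAR1 (85.1), GPA1 (61.3), AGA1 (47.6) and FUS1 (23.7). MFA2 stood clear of the rest, since its lowest library, at 1394 FPKM, was above the highest library of any other member. Every other pair of neighbours in this order overlapped in range. MFA2 ranked between 16 and 64 among all tested ORFs, and FUS1 between 2336 and 3891. FAR1 varied most, with its highest library 7.56 times its lowest, and MFA2 least, at 2.16 times. MFA1, MFA2, STE2, STE6, BAR1 and AGA2 are the a-specific members, and AGA2 (372 FPKM) was more abundant than AGA1 (53.6 FPKM), the subunit it is bound to, in raffinose and at every other stage of both genotypes.

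**Figure D2:**
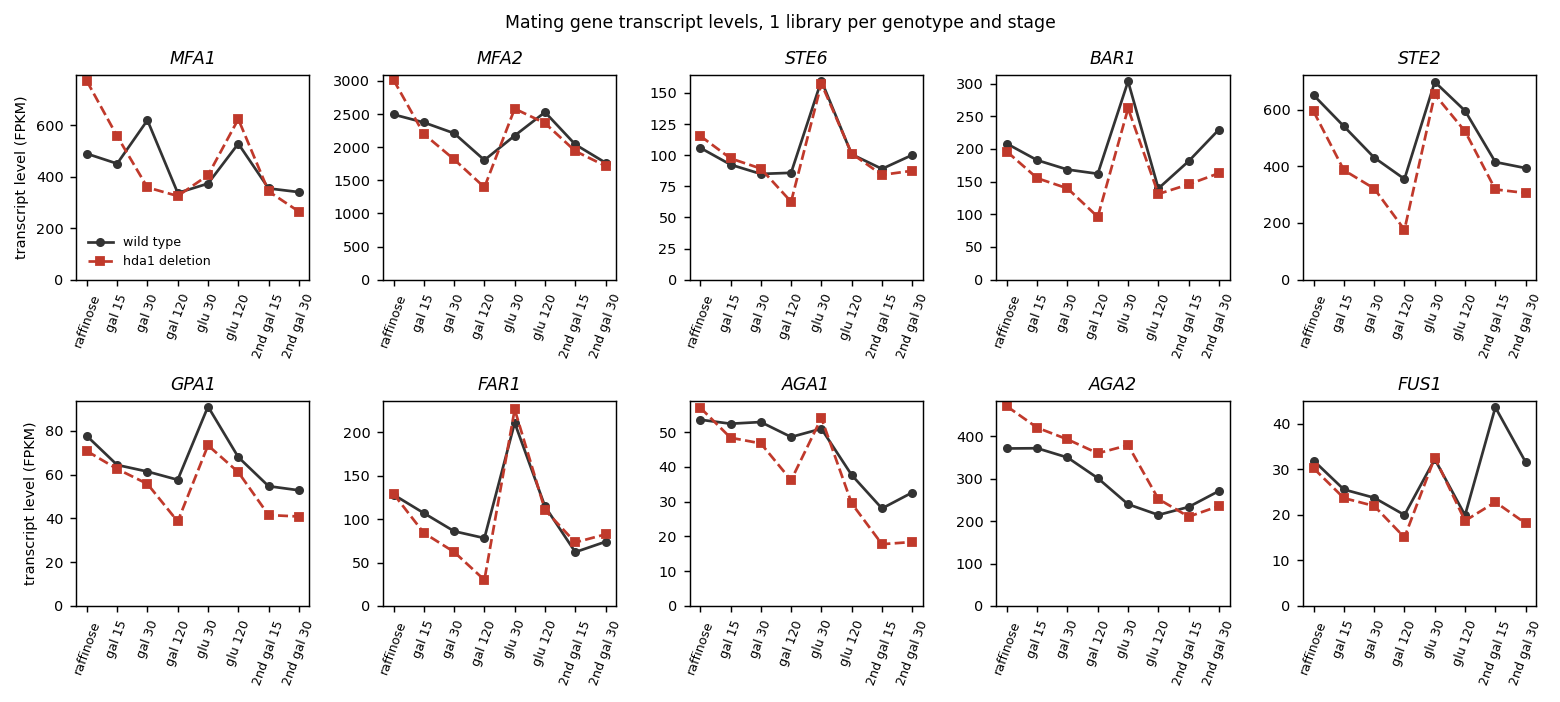
Transcript level in FPKM (y axis, from 0) of each of the 10 genes at the 8 stages (x axis, in the order of the experiment); dots and solid lines are wild type, squares and dashed lines are hda1∆ cells, 1 library a point. FAR1 fell to 30.0 FPKM in hda1∆ cells at 120 min of galactose and peaked at 226 FPKM after 30 min of glucose.

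Between genotypes, the members were seldom past the 1.7-fold rule, and then always lower in hda1∆ cells. A gene was called higher or lower where the ratio of FPKM plus 1 in hda1∆ to wild-type cells reached 1.7 or fell to 0.588 (its reciprocal, log2 0.77 or -0.77). Of 80 member and stage pairs, 0 were higher and 6 were lower (7.50%), while 5.99% of all ORF and stage pairs were higher and 3.53% lower. Among tested ORFs the share called higher was 4.9% in raffinose, 7.84%, 9.35% and 8.06% along the galactose series, 5.95% and 5.02% in glucose, and 3.52% then 3.32% during the second pulse. The shares called lower at the stages where no member was called were 1.11% in raffinose, 1.7% at 15 min of galactose, and 1.39% and 1.26% in glucose. The 6 were MFA1 at 30 min of galactose, STE2 and FAR1 at 120 min of galactose, FUS1 at both stages of the second pulse, and AGA1 at its later stage. Of the members, 5 of 10 were lower at 1 or more stages, against 19% of all tested ORFs, and 0 of 10 were higher, against 16.7%. The log2 ratio was below 0 in 57 of the 80 pairs, and in 54 once centred on the median of all tested ORFs.

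MFA1 encodes a precursor of a-factor, the pheromone of a cells. Its levels in wild type, in the order raffinose, galactose 15, 30 and 120 min, glucose 30 and 120 min, and the second pulse at 15 and 30 min, were 489.7, 451, 619.9, 337, 373, 529, 355 and 340.5 FPKM. In hda1∆ cells they were 772, 558, 358.5, 325, 406, 624, 343 and 265 FPKM in the same order, which is kept for all genes below. At 30 min of galactose wild type had its highest level of all stages while hda1∆ cells were at 0.465-fold of their raffinose level, and the ratio was 0.579-fold (0.518 to 0.646). This was the 1 member called lower of 10 at that stage, where 2.41% of tested ORFs were lower. The call was lost in TPM, at 0.613-fold, and with FPKM scaled to the ORF sum, at 0.604-fold. In raffinose the ratio was 1.58-fold (1.42 to 1.75), the other way. The mean log2 ratio over the 8 stages was 0.01 with an SD of 0.44, so the genotypes differed stage by stage and in both directions.

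MFA2, the other a-factor gene, moved less. Wild type ran from 1765 to 2529 FPKM and hda1∆ cells from 1394 to 3016 FPKM. The lowest level was at 120 min of galactose in hda1∆ cells and at 30 min of the second pulse in wild type. No stage passed the rule, with ratios from 0.773-fold (0.729 to 0.819) at 120 min of galactose to 1.21-fold (1.16 to 1.27) in raffinose. At 30 min of galactose, where MFA1 was called lower, MFA2 was at 0.822-fold (0.781 to 0.864).

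STE6, the ABC transporter that exports a-factor, was not called at any stage. Its levels were 106, 92.4, 84.9, 85.8, 159.9, 101, 89.0 and 100.1 FPKM in wild type. They were 115, 97.4, 89.2, 62.6, 157, 101, 84.2 and 87.5 FPKM in hda1∆ cells. Both genotypes peaked at 30 min of glucose, while the lowest level was at 30 min of galactose in wild type and at 120 min in hda1∆ cells. The ratios stayed between 0.732-fold (0.699 to 0.767) at 120 min of galactose and 1.09-fold (1.05 to 1.13) in raffinose.

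BAR1, the secreted protease that degrades alpha-factor, was lower in hda1∆ cells at 8 of 8 stages, with no stage past the rule in FPKM. Wild type had 208, 183, 168, 162, 304, 139.5, 181 and 229.7 FPKM. The hda1∆ cells had 196, 155, 139.6, 96.0, 262, 131, 146 and 163 FPKM. The ratio was lowest at 120 min of galactose, at 0.595-fold (0.564 to 0.628), just short of the rule, and it was past it in TPM, at 0.568-fold. The mean log2 ratio was -0.31 with an SD of 0.22 over stages.

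STE2, the receptor for alpha-factor, was also lower in hda1∆ cells at every stage and had the lowest mean log2 ratio of the members, -0.38 with an SD of 0.29. Wild type had 651, 541, 431, 355, 698, 596, 415 and 394 FPKM. The hda1∆ cells had 593, 386, 321, 176, 653, 523, 318 and 306 FPKM. The levels were close in raffinose and glucose and parted in galactose, and the ratio fell to 0.497-fold (0.475 to 0.520) at 120 min.

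FAR1 encodes the inhibitor that arrests the cell cycle in G1 and a scaffold for growth toward the mating partner. Wild type had 128, 107, 86.0, 78.1, 211, 115, 62.0 and 73.9 FPKM. The hda1∆ cells had 129, 84.1, 62.2, 30.0, 226, 110.5, 73.2 and 82.5 FPKM. The genotypes were nearly equal in raffinose, at 1.01-fold (0.963 to 1.05), and drew apart along the galactose series to 0.391-fold (0.363 to 0.421) at 120 min. At both stages of the second pulse hda1∆ cells were above wild type, at 1.18-fold (1.10 to 1.26) after 15 min and 1.11-fold (1.05 to 1.19) after 30 min. The other 9 members were below wild type at both of these stages. Once centred, 5 and 8 of the 10 members were below 0 there.

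STE2 and FAR1 were the 2 of 10 members called lower at 120 min of galactose, where 9.79% of tested ORFs were lower. Here the median log2 ratio of the 10 members was -0.43, that of all tested ORFs was -0.14, and 9 of 10 members were below 0, or 8 of 10 once centred. RNA genes took 15.7% of aligned bases in the hda1∆ library against 10.2% in wild type. With every ratio centred on the median of all tested ORFs, both calls held, at log2 ratios of -0.86 for STE2 and -1.21 for FAR1. The part that the RNA gene share had in the uncentred values was not tested.

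GPA1, the alpha subunit of the G protein that holds the pathway off until the receptor is bound, was below wild type at 8 of 8 stages, with no call. Wild type ran from 52.8 FPKM at 30 min of the second pulse to 91.1 FPKM at 30 min of glucose. The hda1∆ cells ran from 38.6 FPKM at 120 min of galactose to 73.4 FPKM at 30 min of glucose. Its lowest ratio was 0.675-fold (0.614 to 0.743), at 120 min of galactose.

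The agglutinin subunits differed in their ratios between genotypes, although their log2 levels over the 16 libraries had a Pearson r of 0.74. AGA1 encodes the wall anchor and AGA2 the small subunit that binds the partner cell. AGA1 had 53.6, 52.5, 52.9, 48.6, 51.0, 37.7, 28.1 and 32.6 FPKM in wild type and 57.1, 48.4, 46.8, 36.2, 54.1, 29.5, 17.8 and 18.4 FPKM in hda1∆ cells. Both genotypes were lowest in the second pulse, hda1∆ cells more so, and the ratio went from 0.646-fold (0.575 to 0.726) to 0.577-fold (0.512 to 0.650) between its earlier and later stage. AGA2 had 372, 372, 350.3, 302, 240.0, 215, 234 and 271 FPKM in wild type and 471, 421, 393, 360.2, 379, 252, 211 and 236 FPKM in hda1∆ cells. It had the highest mean log2 ratio of the members, 0.18 with an SD of 0.27, and was higher in hda1∆ cells at 6 of 8 stages and highest at 30 min of glucose, at 1.58-fold (1.45 to 1.72), short of the rule.

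FUS1, a membrane protein for cell fusion and a standard reporter of the pheromone response, separated the genotypes in the second pulse. Wild type had 31.9, 25.5, 23.7, 20.0, 32.2, 19.9, 43.6 and 31.5 FPKM. The hda1∆ cells had 30.2, 23.7, 21.9, 15.0, 32.5, 18.7, 22.8 and 18.1 FPKM. From raffinose to 120 min of glucose no stage passed the rule, and the lowest ratio was 0.765-fold (0.661 to 0.885), at 120 min of galactose. Only in wild type did the second pulse bring the highest level of the course. The ratio was 0.534-fold (0.474 to 0.601) after 15 min of the second pulse. It was 0.588-fold (0.509 to 0.678) after 30 min, at the edge of the rule.

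In the second pulse FUS1 was the 1 member of 10 called lower at 15 min, where 5.92% of tested ORFs were lower, and FUS1 and AGA1 were the 2 of 10 at 30 min, where the share was 4.69%. The median log2 ratio of the members was -0.23 and -0.36 at these stages, and that of all tested ORFs was -0.16 at both. RNA genes took 14.7% of bases in hda1∆ cells against 11.7% in wild type at 15 min, but 13.9% against 14.0% at 30 min. Centring brought all 3 of these calls short of the rule, FUS1 at 15 min to 0.597-fold, FUS1 at 30 min to 0.656-fold and AGA1 to 0.644-fold. What part the RNA gene share had in these values was not tested.

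**Figure D3:**
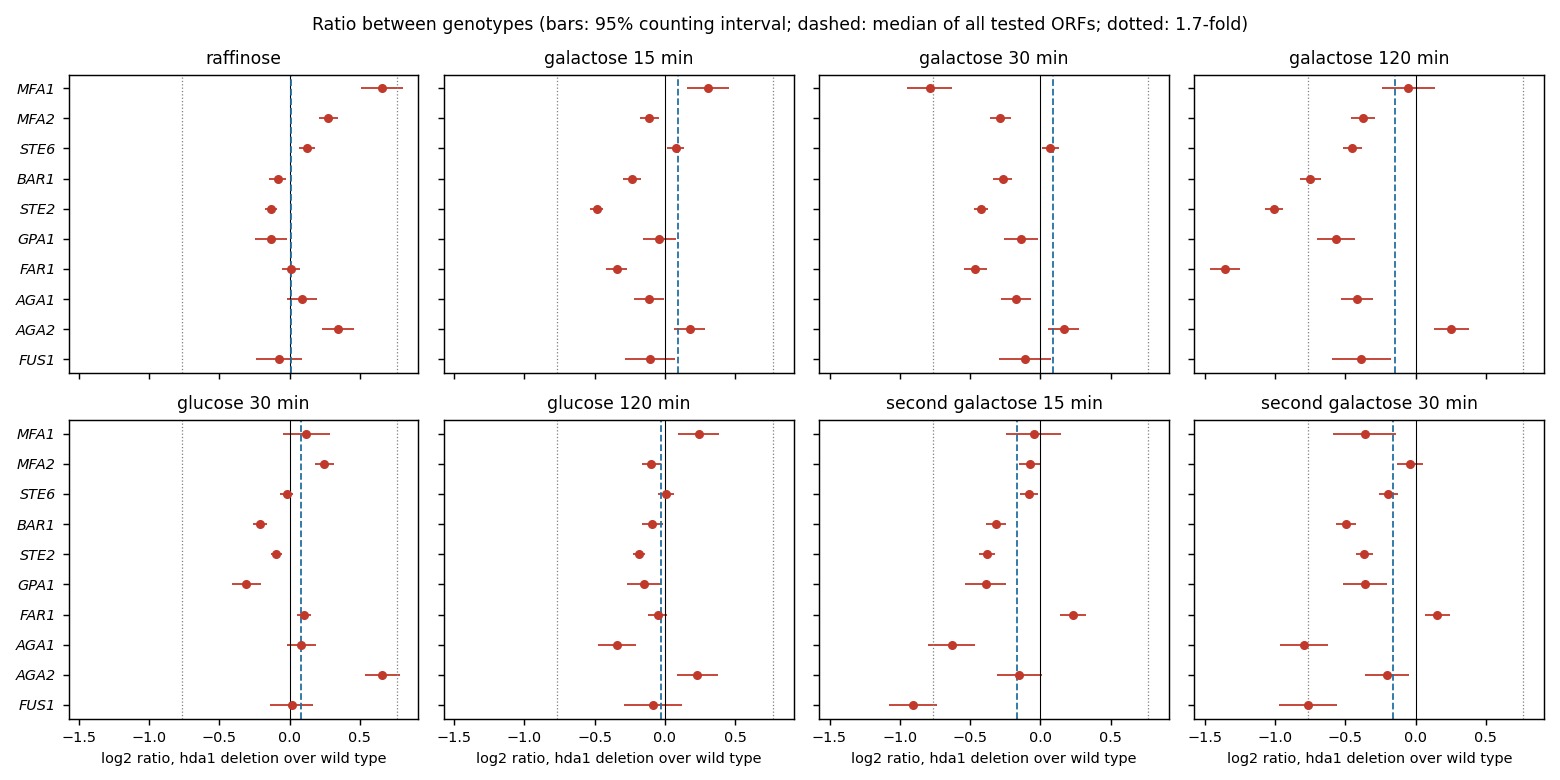
Log2 ratio of FPKM plus 1, hda1∆ over wild-type cells (x axis), for the 10 genes at each of the 8 stages; bars are 95% counting intervals, the dashed line is the median of all tested ORFs and the dotted lines mark 1.7-fold. At 120 min of galactose 9 of 10 genes lie below 0, with FAR1 at -1.35 and STE2 at -1.01.

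Within each genotype, the members fell along the galactose series and came back in glucose by the median over the 10 genes, while single genes moved more at other shifts. Folds between stages were called at 2 or more and at 0.5 or less. From raffinose to 120 min of galactose all 10 members were lower in both genotypes. In wild type 0 of 10 reached 0.5-fold, where 1.75% of tested ORFs did and 4.11% rose past 2-fold, and STE2 came nearest at 0.546-fold (0.528 to 0.565). In hda1∆ cells 5 of 10 did, namely MFA1, MFA2, BAR1, STE2 and FAR1, where 15.3% of tested ORFs did and 7.45% rose past 2-fold. FAR1 was at 0.238-fold (0.222 to 0.255) and STE2 at 0.298-fold (0.286 to 0.310). The median fold of the members was 0.735 in wild type and 0.503 in hda1∆ cells. Their median log2 fold was -0.44 and -0.99, against -0.15 and -0.33 for all tested ORFs. Earlier in galactose 0 of 10 members were called in wild type, where the shares of tested ORFs higher and lower were 2.38% and 0.833% at 15 min and 3.15% and 1.29% at 30 min. In hda1∆ cells 0 were called at 15 min, where the shares were 4.39% and 1.53%. At 30 min MFA1 was lower at 0.465-fold (0.417 to 0.517) and FAR1 at 0.486-fold (0.460 to 0.512), with shares of 6.22% higher and 3.33% lower.

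After 30 min of glucose, 9 of 10 members in wild type and 10 of 10 in hda1∆ cells were above their level at 120 min of galactose. In wild type FAR1 was the 1 member past 2-fold, at 2.68-fold (2.56 to 2.81), with 10.1% of tested ORFs past it and 4.03% at or under 0.5-fold. In hda1∆ cells STE6, BAR1, STE2, FAR1 and FUS1 were past 2-fold, with 28.6% of tested ORFs past it and 5.7% at or under 0.5-fold. FAR1 was at 7.35-fold (6.86 to 7.87) and STE2 at 3.70-fold (3.55 to 3.85). These folds start from the hda1∆ library at 120 min of galactose, which is low for most members, and the levels reached were alike, 211 and 226 FPKM for FAR1 and 698 and 653 FPKM for STE2. AGA2 was the exception in wild type, at 0.796-fold (0.726 to 0.874).

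Between 30 and 120 min of glucose, BAR1 fell to 0.461-fold (0.442 to 0.481) in wild type, the 1 member called of 10 with 6.39% of tested ORFs lower and 1.96% higher, and lay at 0.502-fold (0.480 to 0.525) in hda1∆ cells. FAR1 was the 1 member called in hda1∆ cells, at 0.490-fold (0.470 to 0.511) with 6.12% of tested ORFs lower and 1.84% higher, and lay at 0.546-fold (0.524 to 0.568) in wild type. MFA1 did not follow this decline and was at 1.41-fold (1.26 to 1.58) in wild type and 1.54-fold (1.38 to 1.71) in hda1∆ cells. Between raffinose and 120 min of glucose 0 of 10 members were called in either genotype, with 1.6% of tested ORFs higher and 1.97% lower in wild type and 1.39% and 1.63% in hda1∆ cells.

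When galactose came back, FUS1 was the 1 member past 2-fold in wild type, at 2.13-fold (1.89 to 2.42) after 15 min, with 14.4% of tested ORFs past it and 11.4% at or under 0.5-fold. In hda1∆ cells it was at 1.21-fold (1.05 to 1.39), and 0 of 10 members were called, with 12.8% of tested ORFs past 2-fold and 17.5% at or under 0.5-fold. After 30 min MFA1 was the 1 member at or under 0.5-fold in hda1∆ cells, at 0.425-fold (0.371 to 0.486) with 21.6% of tested ORFs and 16.8% past 2-fold. It was at 0.645-fold (0.566 to 0.733) in wild type, where 0 of 10 were called with 20.4% of tested ORFs higher and 19.4% lower. Compared with the same time of the first pulse, AGA1 was lower in both genotypes. It was the 1 member past the rule in hda1∆ cells at both times, at 0.380-fold (0.343 to 0.421) after 15 min with 10.5% of tested ORFs lower and 4.97% higher. After 30 min it was at 0.406-fold (0.364 to 0.452) with 14.1% lower and 6.31% higher. Wild type was at 0.544-fold (0.496 to 0.595) and 0.624-fold (0.571 to 0.682), where 0 of 10 members were called, with 11.2% and 17.5% of tested ORFs higher and 6.51% and 14.5% lower. Over the 10 stage comparisons, 2 member calls were higher and 1 lower in wild type, and 5 were higher and 11 lower in hda1∆ cells. Comparisons that share a library are not independent. Of the hda1∆ calls, 5 higher and 5 lower calls used the hda1∆ library at 120 min of galactose.

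**Figure D4:**
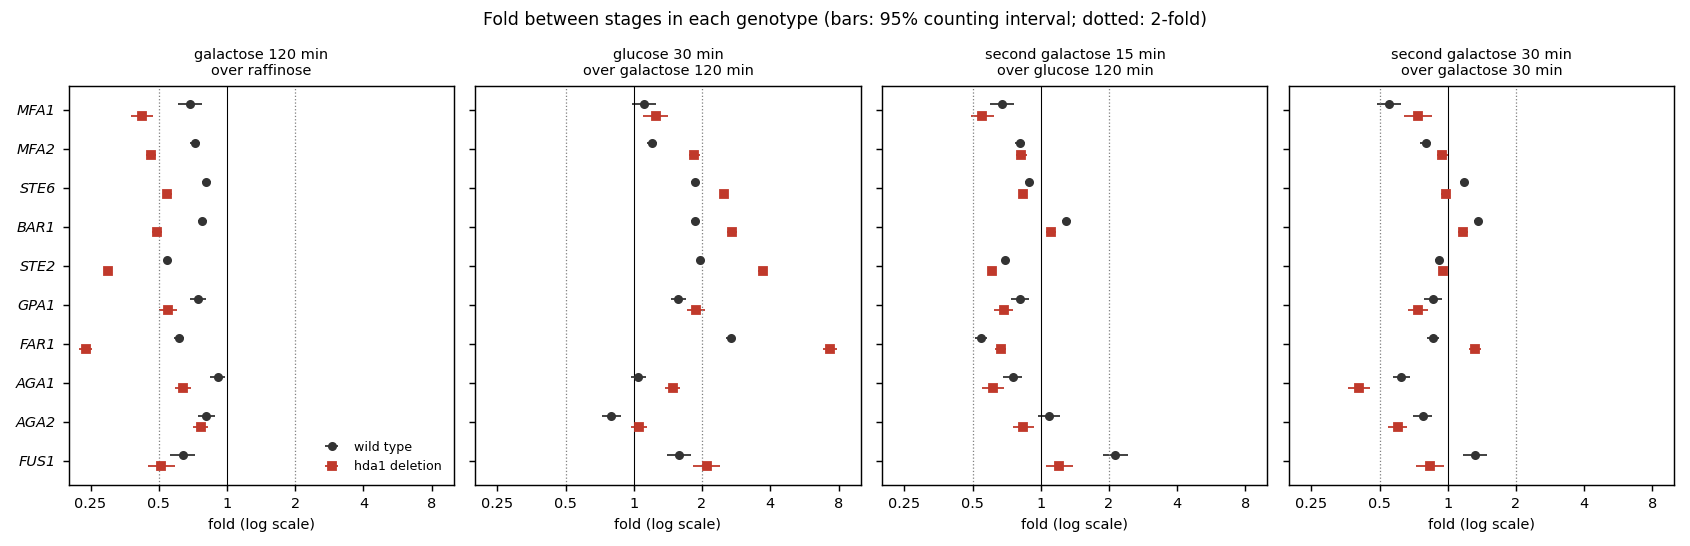
Fold in FPKM plus 1 between stages (x axis, log scale) for the 10 genes in 4 of the 10 stage comparisons; dots are wild type, squares hda1∆ cells, bars 95% counting intervals and dotted lines 2-fold. FAR1 went to 0.238-fold in galactose and 7.35-fold in glucose in hda1∆ cells, against 0.613-fold and 2.68-fold in wild type.

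The rest of the pathway was read from lists drawn up by function. At 120 min of galactose 9.79% of tested ORFs were lower, 8.06% were higher, and their median log2 ratio was -0.14. Over the 8 stages the share lower ran from 1.11% to 9.79% and the share higher from 3.32% to 9.35%. Of 18 tested genes of the G protein and MAP kinase cascade, 0 were called at 7 of the stages, and at 120 min of galactose 0 were higher and 4 lower, with 14 below 0 and a median log2 ratio of -0.30. The 4 were FAR1, the MAP kinase gene KSS1 at 0.587-fold, STE12 at 0.551-fold, and SST2, which turns Gpa1 off, at 0.524-fold. Centred on the median of all tested ORFs, SST2 (0.579-fold) and FAR1 (0.432-fold) stayed past the rule, and KSS1 (0.649-fold) and STE12 (0.609-fold) did not. SST2 had 47.0 FPKM in wild type and 24.2 FPKM in hda1∆ cells there. FUS3, the mating MAP kinase, was at 0.823-fold, and STE4, the G protein beta subunit, at 1.03-fold.

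Of 26 tested genes that pheromone is known to induce, between 0 and 5 were lower and between 2 and 4 higher at each stage. The number lower was 5 at 120 min of galactose, where 9.79% of tested ORFs were lower. It was also 5 at 15 and at 30 min of the second pulse, where 5.92% and 4.69% were lower. These counts include PRM8 at 4 stages and FUS2 in raffinose, where 1 genotype is listed at 0. At both stages of the second pulse FUS1, FUS2, FIG1 and KAR5 were lower, and AGA1 at the later one. PRM1, PRM3, KAR3, KAR4 and CIK1 were not called, but each lay below wild type at both stages. Their ratios ran from 0.632-fold for PRM1 at 15 min to 0.903-fold for PRM3 at 30 min, and PRM1 was at 0.637-fold at 30 min. Of the 26 genes, 20 lay below 0 at 15 min and 19 at 30 min. Others went the other way, with 2 called higher at each stage. These were PRM7 and PRM9 at 15 min, and PRM4 (1.73-fold) and PRM8 (listed at 0 in wild type) at 30 min. SCW10 was at 1.32-fold and GIC2 at 1.22-fold at 30 min. Centred, 2 were lower at 15 min (FIG1 and PRM8) and 1 at 30 min (FIG1). FUS2 had 9.86 and 10.4 FPKM in wild type and 5.32 and 5.08 FPKM in hda1∆ cells. KAR5 had 13.3 and 13.8 FPKM in wild type and 6.85 and 7.14 FPKM in hda1∆ cells. FIG1 was below wild type at all stages, at 0.422-fold to 0.721-fold, and at levels of 0.879 to 17.3 FPKM.

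Of the genes of this list that were higher, PRM9 was above 1.7-fold at 7 of 8 stages, at 4.36 to 14.2 FPKM in wild type and 15.7 to 19.6 FPKM in hda1∆ cells, but it overlaps another ORF (YAR030C). PRM7 was at 1.33-fold to 2.86-fold. AFR1, a regulator of the receptor and of cell shape, was at 1.71-fold, 2.01-fold and 1.68-fold along the first galactose pulse and at 0.891-fold at 30 min of the second pulse. It was past the rule at 15 and 30 min of the first pulse, and when centred at 30 and 120 min instead, with 45.4, 48.3 and 61.4 FPKM in wild type and 78.3, 98.2 and 104 FPKM in hda1∆ cells along it.

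Of 13 tested genes expressed at the M/G1 boundary under Mcm1, a list that holds 5 members (FAR1, AGA1, STE6, STE2 and MFA2), 5 were lower at 120 min of galactose. All 13 were below 0, with a median of -0.64. All 7 reference genes, among them ACT1, TUB1 and TUB2, were below 0 there too, with a median of -0.21, and the median of all tested ORFs was -0.14. Beside FAR1 and STE2 the M/G1 genes called were the replication genes CDC6 at 0.359-fold, MCM2 at 0.463-fold and MCM7 at 0.573-fold. CDC6 had 13.8 FPKM in wild type and 4.30 FPKM in hda1∆ cells there, and it overlaps another ORF (YJL195C). MCM7 was short of the rule when centred (0.633-fold). Of the 6 G1 cyclin genes and their partners, CLN1 was the 1 called there, at 0.406-fold, and the median was -0.38. Of 9 tested haploid-specific genes, FAR1, STE12 and HO were lower at this stage, HO at 0.270-fold, with STE12 short of the rule when centred, and 0 were higher at any stage. Of the 7 genes that process a-factor, STE14, the carboxyl methyltransferase, was lower at 120 min of galactose at 0.50-fold. RAM1, a farnesyltransferase subunit, was lower at 30 min of the second pulse, where 4.69% of tested ORFs were, at 0.585-fold, or 0.654-fold when centred. The 9 regulators of a-specific genes (MCM1, TUP1, CYC8, SIN4, RPD3, SIN3 and the Hda1 complex) gave 1 call at each stage, HDA1 itself. MCM1 lay at 84.1 to 159 FPKM and TUP1 at 59.0 to 111 FPKM.

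The members also differed in how alike their courses were. Over the 16 libraries, in which both genotypes passed through the same 8 stages, the 45 pairs of members had a median Pearson r of log2 levels of 0.54, from 0.02 for MFA1 with BAR1 to 0.93 for STE6 with FAR1. STE2 was at 0.92 with FAR1 and 0.91 with GPA1, so the closest courses joined a-specific genes to genes that are not. AGA2 was at 0.04 with STE6 and with STE2, but at 0.74 with AGA1 and 0.43 with MFA1. The non-member ORFs most like the mean course of the 6 a-specific members were KTR5 (r = 0.95), TRP4 (0.95), YMR010W (0.94), RIM2 (0.94) and NUP120 (0.93). All other ORFs had a median r of 0.30 with this course and a 99th percentile of 0.89 over 5871 ORFs.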

How the data were processed

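Total RNA was extracted with hot phenol, made into directional mRNA libraries and sequenced on a HiSeq2500. The authors aligned reads with HISAT2 2.0.4 and quantified them with StringTie 1.3.0 on the R64 annotation (Ensembl 86). The submitters' processing notes also name FastQC 0.11.5, SAMtools and bedtools 2.26.0. The deposited tables list coverage, FPKM and TPM per transcript for 16 libraries, and whether StringTie used strand is not stated in the command recorded by the authors.

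Deposited FPKM was used, with 1 added before ratios. Coverage times length gave aligned bases, and 202 bases were taken as 1 fragment, since the 6 most frequent low totals were multiples of 101. Intervals are 95% exact binomial on fragments. Members were matched by gene name. The members and the 12 gene lists were chosen with earlier results of these data known. Genes outside the members were named by rule: the 2 highest, 2 lowest and 2 most abundant of each list, all genes of lists of up to 9 genes, and the 5 ORFs of most similar course. STE12, FUS2, PRM1, PRM3, KAR4, CIK1, KAR5, KAR3, PRM4, PRM8, PRM10, AFR1, MCM2, MCM7, FUS3, STE18, NEJ1 and the neighbours of the shared operators were named with their values in view. Motifs were searched in 300 bases before each start codon. RefSeq and the files gave the same start and end for 5994 of 6006 ORFs matched by locus tag. Intervals were tested on data simulated with counting error alone, which cannot test the choice of 202 bases or the spread between cultures. Member values were recomputed with TPM, with centring and with a pseudocount of 0.1 or 5. Counts of calls were also taken with stricter thresholds (2-fold between genotypes, 3-fold between stages) and an interval rule. Genotype counts and member means were repeated without each stage, and the percent of ORFs called with no expression minimum. Once the data had been seen, scaling to the ORF sum, leaving out galactose 120 min and centring of the gene lists joined these. The scripts ran on Python 3.11.15 with matplotlib 3.10.9, pandas 2.3.3, NumPy 2.4.6 and SciPy 1.17.1.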

Additional observations from a re-analysis of the deposited data

Results flagged for a closer look

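In 4 cases a member moved in opposite directions in wild-type and hda1∆ cells over the same stage comparison, with both counting intervals clear of 1. This condition was set after the folds had been seen, each genotype has 1 library a stage, and the difference between genotypes was not tested. MFA1, from raffinose to 30 min of galactose, was at 1.27-fold in wild type and 0.465-fold in hda1∆ cells. FUS1, from 30 min of galactose to 30 min of the second pulse, was at 1.32-fold in wild type and 0.834-fold in hda1∆ cells. FAR1, over the same stages, was at 0.861-fold in wild type and 1.32-fold in hda1∆ cells. MFA2, from 30 to 120 min of glucose, was at 1.16-fold in wild type and 0.915-fold in hda1∆ cells.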

How the results depend on the processing

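The count of 6 lower calls between genotypes became 3 with ratios centred on all tested ORFs and 2 with a threshold of 2-fold. MFA1, STE2 and FAR1 remained under centring, and STE2 and FAR1 under the stricter threshold. Pseudocount 5, TPM and scaling to the ORF sum each kept 4 of the 6, and TPM added BAR1 at 120 min of galactose (0.568), for 5 in all. FUS1 at 30 min of the second pulse was lost under each of these (0.633, 0.593 and 0.598), AGA1 under pseudocount 5 (0.622), and MFA1 under TPM (0.613) and the ORF sum (0.604). The interval rule and pseudocount 0.1 left all 6, and no called pair changed direction. The MFA1 mean, 0.01, was below 0 without any 1 of 4 stages (-0.08 without raffinose), and the members' median at 30 min of glucose went from 0.05 to -0.03 when centred. In stage comparisons, the wild-type counts of 2 higher and 1 lower became 1 higher with pseudocount 5, 2 lower when centred, 0 and 0 at 3-fold, and 1 higher without comparisons that use galactose 120 min. The hda1∆ counts of 5 higher and 11 lower became 2 and 6 when centred, 2 and 2 at 3-fold, and 0 and 6 without those comparisons. The cause was not tested beyond what each setting changes by construction. Mean log2 ratios of the 10 members stayed within their spread over stages in all 130 repeats, and in the 8 stage medians no repeat moved beyond the spread. The spread over stages describes the time course and is no replicate error, so staying within it does not show how sure a mean is. The percent of ORFs called ranged from 1.20 to 8.90 with no expression minimum. No paired analysis was possible because each genotype has 1 library a stage. Depth limits only counting error, and the spread between cultures is unknown.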

Other observations

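Several genes of mating type lay outside the comparisons above. MATALPHA1, HMLALPHA1, STE18, NEJ1 and PRM10 were listed at 0 in all 16 libraries, and all but NEJ1 overlap another ORF. STE18 encodes the G protein gamma subunit, which haploid cells need for mating, so its listed 0 cannot be read as absence. PRM8 was at 0 in 12 libraries and reached 83.0 FPKM in another, and KAR3 was at 0 in 2. HMRA1, whose sequence is also that of MATa1, ran from 37.9 to 129 FPKM, with its highest level at 30 min of the second pulse in wild type. HMLALPHA2, HMRA2 and MATALPHA2 share sequence, and their values are uncertain for that reason. Of these cassette genes 4 were tested and 0 were higher. MATALPHA2 was lower at 2 stages, 30 min of galactose and 120 min of glucose, where 2.41% and 1.26% of tested ORFs were lower. The silencing genes SIR1, SIR2, SIR3 and SIR4 had no call at any stage, nor had the 7 reference genes with ACT1, TUB1 and TUB2.

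ASG7, the a-specific gene that is no member, ran from 38.5 to 113 FPKM. It was called higher at 30 min of glucose, at 1.72-fold, a call lost with centring, with 55.4 FPKM in wild type and 96.0 FPKM in hda1∆ cells, where 5.95% of tested ORFs were higher. The alpha-cell markers had mean log2 ratios of both signs, 0.84 for MF(ALPHA)1, 0.45 for MF(ALPHA)2, 0.43 for SAG1 and -0.78 for STE3, which overlaps another ORF (YKL177W). MF(ALPHA)1 was called higher at 5 of 8 stages (raffinose, galactose 30 and 120 min, glucose 30 and 120 min), at levels of 1.93 to 9.94 FPKM in hda1∆ cells. The share of tested ORFs higher at these stages was between 4.9% and 9.35%.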
